A study of Mus musculus with 11 samples.

Results

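The 33 genes described here are known transcriptional targets or close partners of p53, the transcription factor encoded by Trp53, and were picked by name from 31053 genes counted in single cells of dissociated mouse lung. Their levels were read in barcodes with 1000 to 30000 UMIs (unique molecular identifiers, 1 per captured RNA molecule) and at most 14% of UMIs from mitochondrial genes, which left 69267 of 81983 barcodes in 11 libraries. The libraries were labelled as lung samples of 4 genotypes: 1 wild type (+/+, WT), 3 p21 heterozygotes (+/-, p21Het), 5 p21 mTert (+/mTert) and 2 p21 mTertCD (+/mTertCD), the last abbreviation not being spelled out in the labels. By the series title, telomerase (mTert) is induced in p21-positive cells, and p21 (Cdkn1a) is itself a p53 target; the 3 modified groups share a labelled genotype with 1 wild-type copy. The labels do not say whether a library held cells of 1 or several mice, so p-values measure the spread between these libraries. All mice were 18 months old except p21Het_1, at 19 months, and p21mTert_1, at 20 months by the age field (18 in their titles). WT_1, p21Het_1 and p21mTert_1 belong to an earlier deposit and the other 8 libraries to a later one. WT, with 1 library, entered no genotype test.

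In an unstressed cell p53 protein is kept scarce by the ubiquitin ligase Mdm2, which p53 itself induces. DNA damage, oncogene activity, nutrient stress and short telomeres stabilise p53, and its targets then halt the cell cycle, repair DNA, adjust metabolism or start apoptosis. In lung, p53 and p21 are studied for their parts in radiation injury, ageing and senescence of alveolar and endothelial cells. Most of the 33 genes also answer to other inputs, so a level is not a measure of p53 activity.

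The binding sequence that p53 recognises is a pair of decamers, and windows around single decamers are printed for 6 members because they show what the shared element looks like in the targets' own promoters. RefSeq promoters (GRCm38.p6, 250 bases before to 50 after the start site) were found for 25 members, with 34 promoters among them. The p53 half-site decamer was searched as the pattern RRRCWWGYYY (R for A or G, W for A or T, Y for C or T). The pattern, though not each match, is its own reverse complement, so both strands were read at once. The decamer was in 10 of the 34 (29.4%), belonging to 9 genes, and in 8.36% of 32851 promoters of all genes. A pair of decamers at most 13 bases apart was in 0 of the 34 and in 0.0731% of all promoters. Capitals mark the decamer in each window of 60 bases, written 5′ to 3′ on the gene's strand. The Ccng1 window is chr11:40755437-40755496 (- strand), Mdm2 chr10:117710910-117710969 (- strand), Trp53 chr11:69580259-69580318 (+ strand), Sesn1 chr10:41887241-41887300 (+ strand), Bax chr7:45467065-45467124 (- strand) and Gadd45a chr6:67037413-67037472 (- strand). Each lies upstream of an annotated start, with the decamer's first base at -185, -186, -75, -173, -201 and -40 in the same order. A match describes letters in this window and not a bound site.
Ccng1: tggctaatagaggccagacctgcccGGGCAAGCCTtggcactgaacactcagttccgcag
Mdm2: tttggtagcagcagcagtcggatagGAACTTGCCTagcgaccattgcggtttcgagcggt
Trp53: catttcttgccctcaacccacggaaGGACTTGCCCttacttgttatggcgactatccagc
Sesn1: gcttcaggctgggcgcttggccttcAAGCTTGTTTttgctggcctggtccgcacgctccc
Bax: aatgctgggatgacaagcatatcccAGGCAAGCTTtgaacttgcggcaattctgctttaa
Gadd45a: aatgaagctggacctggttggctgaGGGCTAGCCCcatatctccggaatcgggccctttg

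Libraries held 42038434 to 85988955 UMIs over all barcodes, and their kept cells had a median of 4133 to 6454 UMIs. Tert, the gene carried by the modified alleles, was at 0.544 to 0.842 CPM (UMIs of the gene per 1000000 UMIs) in p21Het, 1.13 in WT, 2.00 to 3.28 in p21mTert and 1.90 and 2.59 in p21mTertCD, so that no library with an mTert allele overlapped p21Het. In edgeR's quasi-likelihood test over all cells its log2 difference from p21Het was 1.80 ± 0.29 (approximate SE) in p21mTert and 1.67 ± 0.33 in p21mTertCD (adjusted p 0.191 and 0.139, over all genes). Here and below, the value after ± is the size of the log2 difference divided by the square root of the test's F statistic. Cdkn1a ranged from 118 to 187 CPM; the labels do not say whether its counted 3′ end lies in the altered part of the allele, so it checks nothing. Cells were assigned to a lineage by marker lists, 24 in all, with 215 markers and no member gene among them, and 6.39% stayed unassigned. The leading list decided, except that the lists of gCap and aCap (general and aerocyte capillary endothelium) did not compete. Cells led by the list for all endothelium were split into gCap and aCap by the difference between those scores. Lineages with at least 20 cells in at least 9 libraries were compared, 17 in all. In each of these, cells showed a median of 4 (gCap) to 10 (ciliated) of their list's markers, which the gate itself selects for. The gCap markers Plvap and Cd93 are also known from other vessels. The largest carry-over by a marker list was that of classical monocytes in alveolar macrophages, at 219% of its level in classical monocytes; Chil3, a member of both lists, is known from alveolar macrophages. Pairs of libraries shared 4 to 20 barcodes.

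Levels are given in CPM, over the UMIs of that lineage in that library, lowest, median and highest over the libraries with at least 20 such cells (11 unless stated). A lineage was tested against the mean of the other 16 with edgeR, each library as a block, on all 13877 genes that passed the filter on low counts, and called at an adjusted p (Benjamini-Hochberg) under 0.05. All 33 members passed the filter. Of 561 pairs of a member and a lineage, 195 were called higher and 190 lower, or 34.8% and 33.9%, beside 34.1% and 29.9% of all gene-lineage pairs. Those shares are near the background, so the count says nothing particular about p53 targets. The pairs called lower leave out some of the lowest levels. Ak1 was called lower in 1 lineage and Eda2r in 0, with medians of 0 in 8 and 13 lineages. What follows is where each member was found among the 17 lineages. Smaller lineages, some with higher levels, are given further below. With library sizes set by total UMIs or by DESeq2's size factors in place of edgeR's TMM factors, 28 of the 385 called pairs turned sign, 6 of them in aCap and 5 in gCap. Scaling to total UMIs moved the median log2 difference of all genes from between -0.25 and 0.02 to between -2.66 (erythroid) and 0.67 (gCap). Globin and other red-cell markers made up a median of 832700 CPM in erythroid cells, which leaves low CPM levels for everything else there.

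The members did not share a lineage of highest level. Neutrophils had the highest median level of 5 members (Gadd45a, Btg2, Plk3, Sesn2 and Xpc). Alveolar macrophages led in 4 (Ccng1, Perp, Zmat3 and Tigar), and aCap, the Car4-positive aerocyte capillary cells, in 4 more (Bax, Aen, Ei24 and Phlda3). gCap led in 3 (Fas, Tnfrsf10b and Plk2), as did T cells (Trp53, Sesn3 and Ddb2), B cells (Mdm4, Sesn1 and Rrm2b) and ciliated cells (Mdm2, Polk and Ak1). The remaining leaders were fibroblasts for Eda2r and Ercc5, non-classical monocytes for Bbc3 and Ddit4, classical monocytes for Apaf1, club cells for Dcxr, dendritic cells for Pmaip1 and plasma cells for Trp53inp1. How many of all genes each lineage led was not counted, so these counts mark nothing particular to the members. They also rest on CPM over total UMIs. On that scale the median log2 difference of all genes was -0.75 in neutrophils and 0.67 in gCap. For every one of the 33 the standard deviation of log2(level + 1) over lineages exceeded that over libraries within a lineage, by a median ratio of 3.84. That ratio was not computed for all genes, so it marks nothing particular to the members. The low CPM levels of erythroid cells enter the spread over lineages. The ratio was lowest for Ddb2 (1.71) and Tigar (1.74) and highest for Ak1 (6.45).

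**Figure D1:**
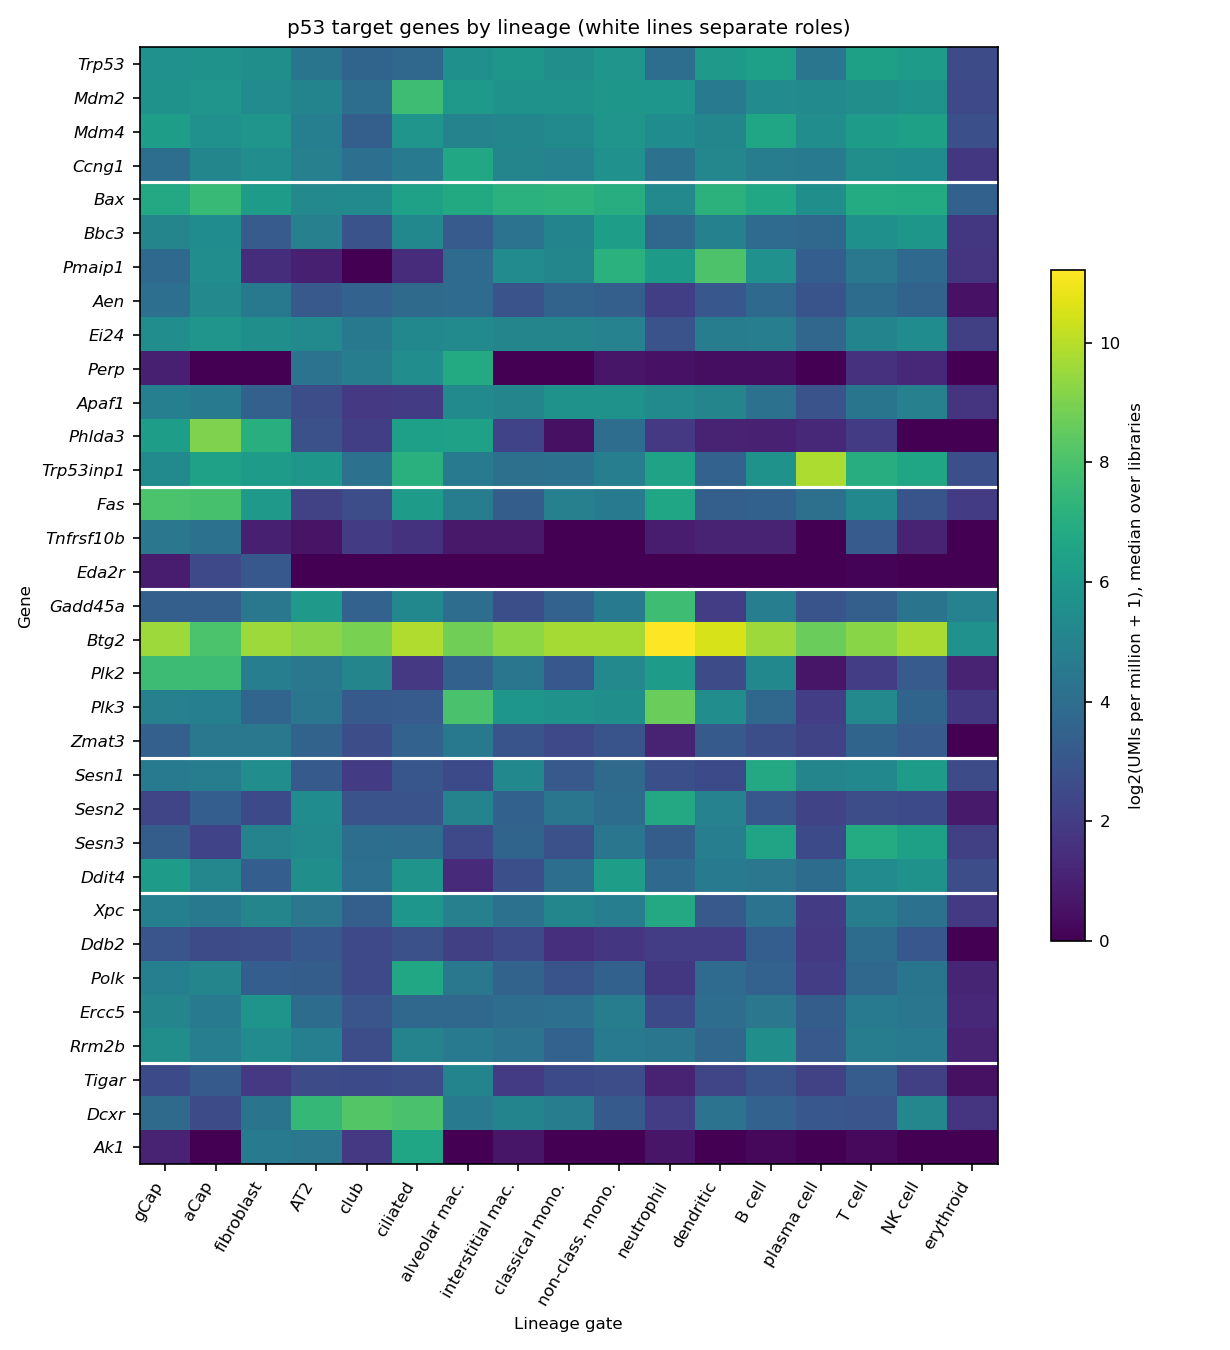
Median level over libraries of each p53 target gene (rows, grouped by role with white lines) in 17 lineage gates (columns), as log2(CPM + 1). Among the bright cells are Btg2 in neutrophils (2365 CPM), Trp53inp1 in plasma cells (919) and Phlda3 in aCap (525.6), and the erythroid column is dark for nearly all genes.

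Across the 17 lineage medians the 528 pairs of members had a median Spearman rho of 0.248, and 428 of them were above 0. Without erythroid, club and plasma cells, over the other 14 lineages, the median rho was 0.064 and 300 pairs were above 0. Plk3 and Apaf1 had the most alike order of lineages (rho 0.865 over 17 lineages, 0.798 over 14), followed by Ddit4 and Bbc3 (0.824 and 0.82). Gadd45a and Bax were the most unlike (-0.62 and -0.754), and Sesn1 and Sesn2, genes of the same family, were also opposed (-0.368 and -0.679). These coefficients describe lineages that share libraries and depth, and carry no test. They were not computed for all genes, so they mark nothing particular to the members.

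The p53 gene and its negative regulators were highest in different lineages. Trp53 (chr11:69580359-69591873, + strand) was highest in lymphocytes, with medians of 82.1 in T cells, 79.8 in B cells and 70.1 in NK cells; T cells exceeded B cells in 9 of 11 libraries. It was called lower in ciliated cells (log2 difference -2.23), club cells (-1.06), AT2 cells (-0.83) and neutrophils (-0.70). Mdm2, the ligase that degrades p53 (chr10:117688875-117710758, - strand), was highest in ciliated cells: WT had 245, the 3 p21Het libraries 226, 202 and 227, the 5 p21mTert libraries 218, 181, 188, 225 and 212, and the 2 p21mTertCD libraries 176 and 172. All 11 ciliated values lay above the same library's value in alveolar macrophages, the second lineage with a median of 64.2. The Mdm2 difference was 1.78 ± 0.05 (edgeR), a description since the lineage was picked for its level, as are the differences of other members in the lineage of their highest level. Among cells thinned to 1000 UMIs, a median of 18.0% of ciliated cells had an Mdm2 UMI, against 5.63% of alveolar macrophages, the next share, and 2.27% of dendritic cells (ciliated and dendritic cells 79.7% and 30.6% without thinning, at median depths of 13870 and 16980 UMIs).

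Mdm4, the paralogue that masks the activation domain of p53, was highest in B cells (median 97.3, range 80.4 to 117) and above NK cells, next at 80.8, in all 11 libraries. Among the 17 lineages Ccng1, encoding cyclin G, which recruits a phosphatase to Mdm2, was highest in alveolar macrophages (104, range 71.3 to 116). It was above the next lineage, non-classical monocytes at 50.5, in all 11. Mdm4 was called in 15 of the 17 lineages, 7 higher and 8 lower, of which aCap, ciliated cells and neutrophils turned sign under another scaling. Ccng1 was called in 12, 7 of them higher, with aCap and plasma cells turning sign.

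Genes grouped here by links to cell death, other than the death receptors, differed in where they were highest. Trp53inp1, which promotes p53 phosphorylation and autophagic death, was at 547 in WT plasma cells, 686 and 1205 in 2 p21Het libraries, 967, 967, 781 and 919 in 4 p21mTert libraries, and 683 and 1054 in the p21mTertCD pair. Plasma cells were above ciliated cells, the second lineage with a median of 138, in 9 of 9 libraries. The difference from the other lineages was 5.26 ± 0.06 on the log2 scale. Thinned to 1000 UMIs, a median of 42.9% of plasma cells had a Trp53inp1 UMI. The next shares were 12.6% of T cells and 12.2% of ciliated cells, and the lowest of the 17 lineages 0.952%, of dendritic cells (median depths of plasma and dendritic cells, 19790 and 16980 UMIs). B cells, which mature into plasma cells, were not called for Trp53inp1.

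Phlda3, an inhibitor of the survival kinase Akt (chr1:135766119-135769136, + strand), was at a median of 525.6 in aCap (range 390 to 629 over 10 libraries). It was above fibroblasts, second at 132, in 10 of 10. The difference was 5.51 ± 0.11 on the log2 scale. gCap, the neighbouring capillary type, was also called higher (2.66), as were alveolar macrophages (3.06) and ciliated cells (2.68), whereas 9 lineages were called lower, classical monocytes most (-3.53). After thinning, 34.3% of aCap cells had a Phlda3 UMI, followed by 10.8% of fibroblasts, whereas neutrophils were among the lineages at 0% (medians; aCap and neutrophils 74.7% and 0.909% without thinning, at 4390 and 3825 UMIs).

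Pmaip1, which encodes the BH3-only protein Noxa, was at a median of 270 in dendritic cells (range 197 to 328). Non-classical monocytes followed at 143.5 and neutrophils at 67.0, and dendritic cells were above non-classical monocytes in all 11 libraries. Epithelium and stroma were at the other end: AT2 cells (-4.12), fibroblasts (-3.93), ciliated (-3.74) and club cells (-1.51) were called lower, and the club median was 0. Bbc3, which encodes the related protein Puma, was highest in non-classical monocytes (75.7), above NK cells (59.2) in 9 of 11. It was called higher in 8 lineages and lower in 6. Bax, the pore-forming effector, had its highest median, 190, in aCap, which was 1.74 times the median over lineages. It was called higher in 9 lineages and lower in 6, of which ciliated cells and gCap turned sign under another scaling. Apaf1, the apoptosome scaffold, did not separate classical (53.6) from non-classical monocytes (53.2), with the first higher in 7 of 11 libraries.

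Perp, a junctional membrane protein of epithelia, was highest in alveolar macrophages. Its level there was 35.4 in p21Het_2 and 64.0 in p21mTertCD_1, and 102 to 161 in the other 9 libraries. p21Het_2 was the only library in which it lay below ciliated cells (median of all libraries 44.0). Club cells followed at 25.8, AT2 cells were at 18.2, and 6 lineages had a median of 0. The summed AT2 markers in alveolar macrophages had a median of 159 CPM, against 34170 in AT2 cells. Their part in the Perp level was not tested. Among the 17 lineages Aen, an apoptotic nuclease, and Ei24, an endoplasmic reticulum protein, were both highest in aCap. Their medians there were 37.7 and 55.9, above fibroblasts in 9 of 10 libraries.

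**Figure D2:**
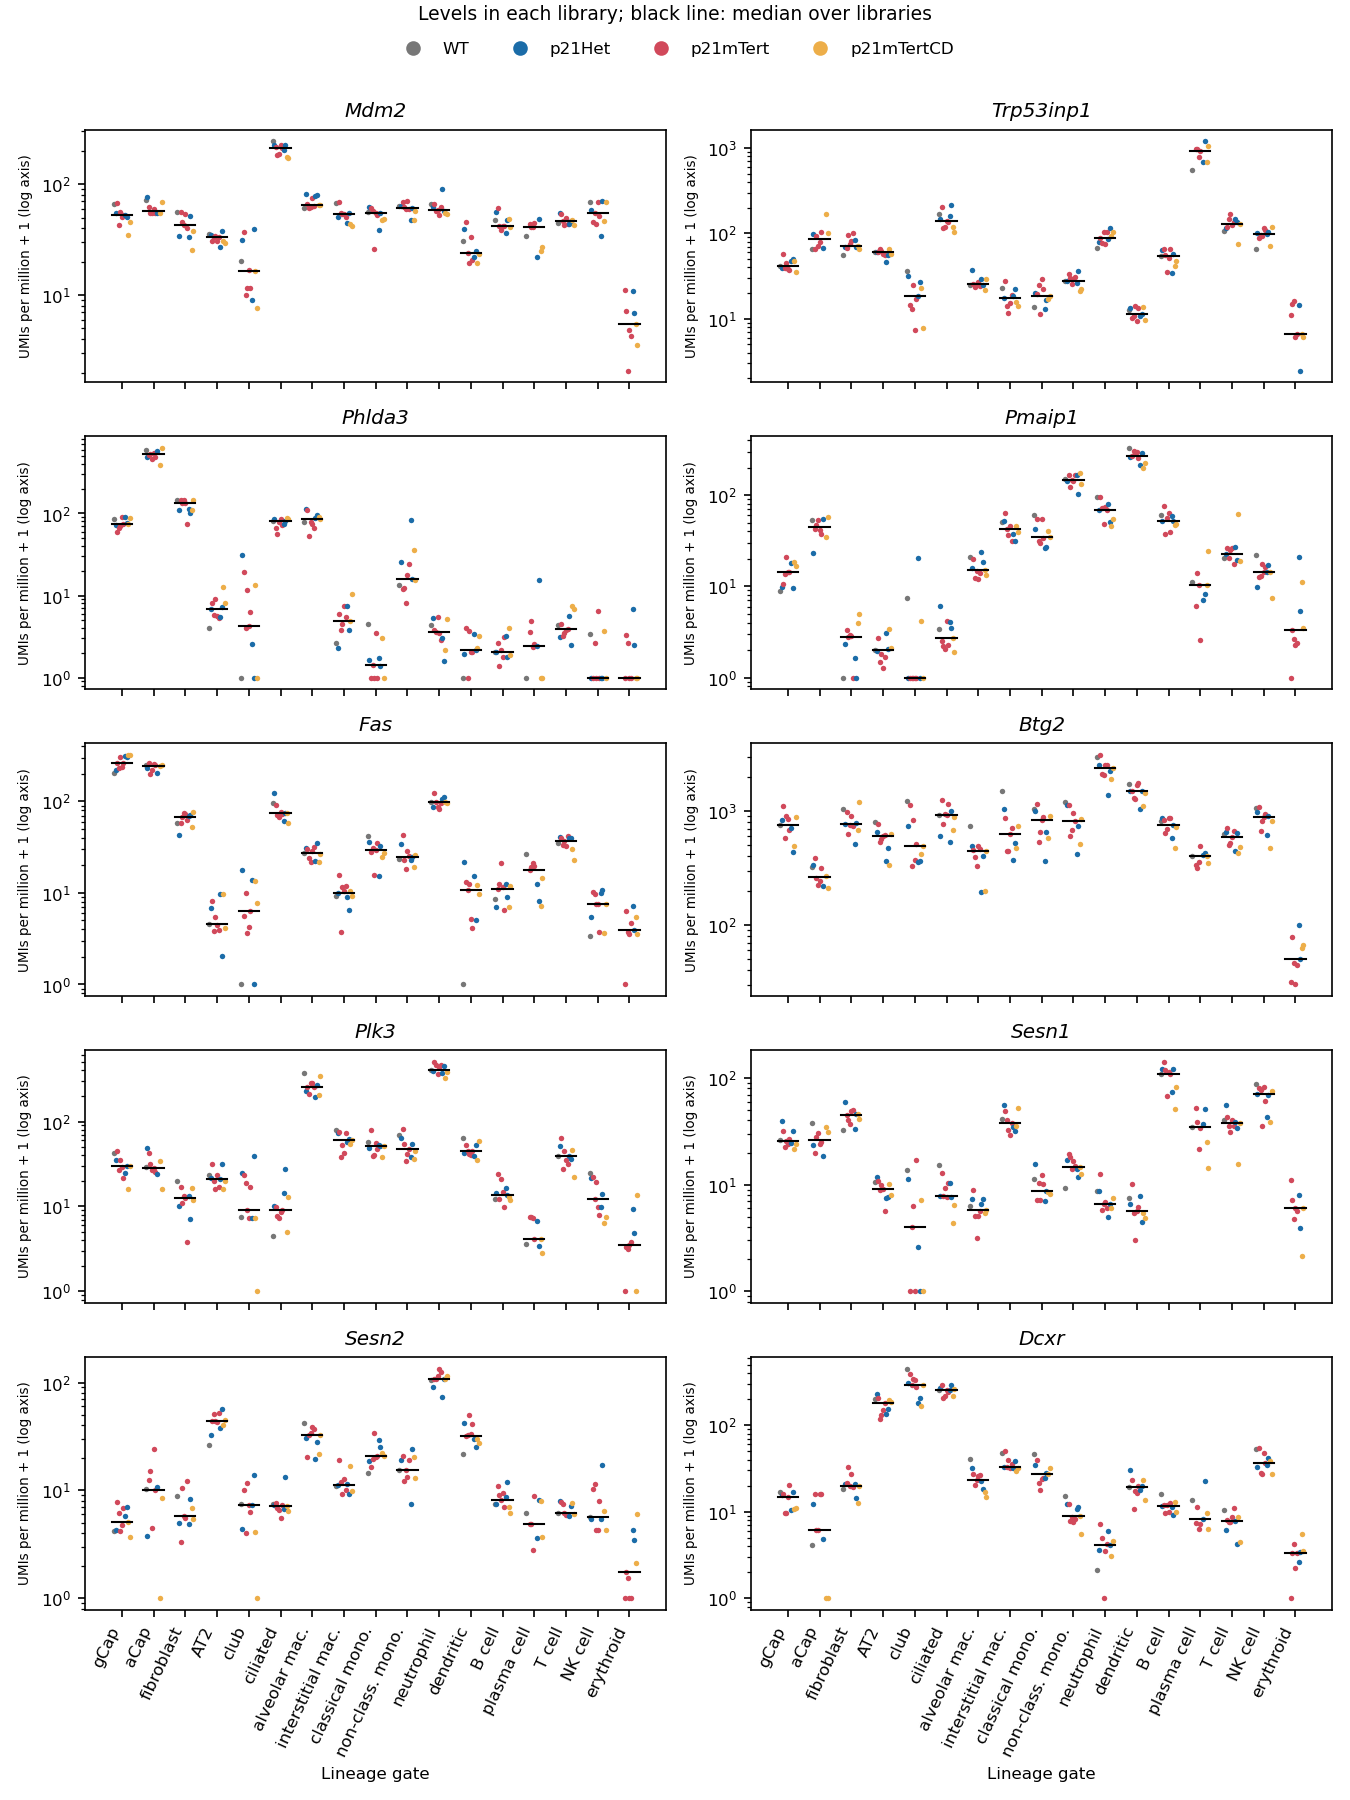
Level of 10 p53 target genes in each library (points coloured by genotype group) and lineage gate, as CPM + 1 on a log axis, with black lines at the median. Mdm2 stands at 172 to 245 in ciliated cells, Trp53inp1 at 547 to 1205 in plasma cells, Sesn1 leads in B cells and Sesn2 in neutrophils, and points of the 4 groups lie among each other in most columns.

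Of the death receptors, Fas and Tnfrsf10b were highest in capillary endothelium and Eda2r in fibroblasts, among the 17 lineages. Fas, the receptor of Fas ligand (chr19:34290666-34327772, + strand), was at 205 in WT gCap and at 219, 311 and 302 in p21Het. It was at 263, 230, 304, 238 and 264 in the 5 p21mTert libraries and 322 and 320 in p21mTertCD. aCap, at a median of 244, did not separate from gCap, which was higher in 7 of 10 libraries. Neutrophils came next at 97.4. Fas was called higher in gCap (3.06 ± 0.08), aCap (2.75), neutrophils (2.66), ciliated cells, fibroblasts and T cells, and lower in 7 lineages, NK (-2.49) and AT2 cells (-2.39) most; alveolar macrophages, 1 of the 7, turned sign under another scaling. After thinning, 25% of gCap cells, 20.7% of aCap cells and 0.553% of B cells had a Fas UMI, at 3520, 4390 and 4090 UMIs. Tnfrsf10b, the TRAIL receptor, was at 21.02 in gCap and 17.4 in aCap and under 10 in the other 15 of the 17 lineages. Eda2r, a receptor for ectodysplasin A2, was low in the 17 lineages, at a median of 7.52 in fibroblasts and 4.48 in aCap, and its median was 0 in 13 of 17 lineages.

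Of the growth and checkpoint genes, Btg2, Plk3 and Gadd45a were highest in neutrophils among the 17 lineages. Plk3 was higher in basophils or mast cells (858), a smaller lineage described below. Btg2, an antiproliferative cofactor of mRNA decay (chr1:134075170-134079120, - strand), was at 2999 in WT neutrophils and at 2536, 1390 and 2248 in p21Het. It was at 3113, 2097, 2086, 2535 and 2560 in the 5 p21mTert libraries and 1919 and 2365 in p21mTertCD. Neutrophils were above dendritic cells (median 1487) in all 11 libraries, and the difference from the other lineages was 2.51 ± 0.07. Plk3, a stress-responsive polo-like kinase, was at a median of 403 in neutrophils and 252 in alveolar macrophages, again in that order in 11 of 11; the third lineage had 59.1. Gadd45a, a stress sensor that activates p38 and JNK signalling, was at 213 in neutrophils (range 177 to 299), above AT2 cells (65.2) in every library. Erythroid cells had a Gadd45a median of 30.1, and a log2 difference of 4.14, beside 4.24 in neutrophils, on the TMM scale. Scaled to total UMIs, the same differences were 1.35 and 3.77. Plk2, a relative of Plk3, was instead capillary, at 206 in gCap and 205 in aCap (gCap higher in 8 of 10), with neutrophils next at 69.3. Zmat3, an RNA-binding protein of the p53 response, had near-equal medians of 21.8 in alveolar macrophages, 21.7 in fibroblasts and 21.2 in aCap, the highest of the 17 lineages.

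Btg2, Plk2 and Plk3 are also known as immediate early genes, and the fixed list of 16 immediate early and dissociation genes was measured beside them. Its summed level had a median of 13210 CPM in neutrophils (9481 to 17690), 12060 in AT2 cells (7112 to 16420), 15170 in gCap (9837 to 19760) and 19460 in fibroblasts (15170 to 24370). The library with the lowest Btg2 in neutrophils, p21Het_2, also had the lowest list sum there. Its part in the Btg2, Plk3 and Gadd45a levels was not tested.

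Sestrins, which restrain mTORC1 and oxidative damage, split between lineages. Sesn3 was at 110 in WT T cells and at 130, 110 and 120 in p21Het. It was at 119, 102, 117, 119 and 115 in the 5 p21mTert libraries and 66.7 and 118 in p21mTertCD, where p21mTertCD_1 stood apart. B cells followed at 92.0 and NK cells at 81.0, and T cells were above B cells in all 11 libraries. Sesn1 (chr10:41809935-41908424, + strand) was at 108 in B cells (50.6 to 141) and 70.4 in NK cells, with B cells higher in 11 of 11. Sesn2 was at 107 in neutrophils (71.8 to 133), 42.7 in AT2 cells and 31.5 in alveolar macrophages. Thus Sesn1 and Sesn3 were called higher in B, T and NK cells (0.99 to 2.68), and Sesn2 was called lower in those same lineages (-0.66 to -1.19). Among the 17 lineages Ddit4, an mTORC1 inhibitor that answers to hypoxia and glucocorticoids, was highest in non-classical monocytes (76.0) and gCap (71.2), with the first higher in 8 of 11. Basophils or mast cells, a smaller lineage described below, had 807. Alveolar macrophages had the lowest Ddit4, with a median of 1.53 and a difference of -3.89.

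DNA repair genes were spread over several lineages. Xpc, the damage sensor of nucleotide excision repair, was at 134 in WT neutrophils and at 97.6, 51.9 and 109 in p21Het. It was at 114, 101, 118, 111 and 104 in the 5 p21mTert libraries and 73.2 and 116 in p21mTertCD. Neutrophils were above ciliated cells (median 58.9) in all 11 libraries. Polk, a translesion polymerase, was highest in ciliated cells (100.3, range 87.8 to 118) and above aCap (33.1) in 10 of 10. Ercc5, the repair nuclease Xpg, was highest in fibroblasts (55.6), and above gCap (33.8) in all 11. Rrm2b, the p53-inducible ribonucleotide reductase subunit, did not separate B cells (46.8) from gCap (45.4), with B cells higher in 5 of 11 libraries. Ddb2, which recognises ultraviolet damage, was low, with a highest median of 14.5 in T cells, above B cells (9.10) in all 11.

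Metabolic targets were highest in airway epithelium and alveolar macrophages. Dcxr, a carbonyl reductase, was at 450 in WT club cells and at 309, 178 and 206 in p21Het. It was at 385, 289, 344, 329 and 275 in the 5 p21mTert libraries and 166 and 295 in p21mTertCD, on 20 to 76 cells per library. Ciliated cells had a median of 254 and AT2 cells 178, and club cells were above ciliated cells in 8 of 11. All 3 epithelial lineages were called higher (4.56, 3.20 and 3.26), and neutrophils lowest (-2.30). Ak1, an adenylate kinase, was at 98.2 in ciliated cells, 22.9 in fibroblasts and 21.1 in AT2 cells, and at a median of 0 in 8 lineages. Tigar, a bisphosphatase that lowers glycolytic flux, was at 32.1 in alveolar macrophages (21.4 to 42.1), above T cells (8.50) in all 11 libraries.

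Seen by lineage, T cells had 21 of 33 members called higher and 6 lower, beside 42.1% and 30.8% of all genes, 1 of these 27 turning sign under another scaling. Their median member difference was 0.30 on the log2 scale, against 0.01 for all genes tested. B cells had 13 higher and 11 lower (all genes 40.6% and 30.5%), and NK cells 12 and 8 (26.8% and 29.9%). Alveolar macrophages had 14 higher and 15 lower (41.1% and 31.8%), interstitial macrophages 7 and 14 (34.4% and 24.2%), and dendritic cells 11 and 13 (33% and 32.1%). Classical monocytes had 9 and 14 (34.6% and 32.9%), whereas non-classical monocytes had 14 and 8 (33.6% and 31.2%). Neutrophils, which led in the most members, had 13 higher and 15 lower (33.1% and 39.1%). In the epithelium, AT2 cells had 15 and 12 (42.2% and 33.1%), ciliated cells 12 and 13 (43.2% and 36.5%) and club cells 7 and 13 (22.0% and 23.2%). aCap had 12 higher and 10 lower (28.4% and 28.7%), of which 12 and 4 kept their sign under the other scalings. gCap had 11 and 13 (40.1% and 30.4%), of which 11 and 8 kept it, and fibroblasts 14 and 12 (38.5% and 33%). Plasma cells had 6 and 11 (24.6% and 28.7%), of which 3 and 11 kept it. Erythroid cells had 4 called higher and 2 lower (20.7% and 11.5% of all genes), of which 3 kept their sign under the other scalings.

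Smaller lineages were summed over libraries and are given without a test, with exact Poisson intervals (95%) that cover counting error only. Basophils or mast cells (261 cells) had a Plk3 level of 858 CPM (814 to 904) and 807 of Ddit4 (765 to 852), both above every median of the 17 lineages. Mesothelial cells (238 cells) had 145 of Ccng1 (133 to 159), 88.2 of Ei24 (78.5 to 98.9), 63.2 of Zmat3 (55.0 to 72.3) and 28.3 of Eda2r (22.9 to 34.6). These 4 levels, too, lay above every median of the 17 lineages. Tnfrsf10b was at 11.6 in mesothelial cells (8.27 to 15.9) and at 24.2 in group 2 innate lymphoid cells (206 cells; 15.9 to 35.1), an interval that holds the gCap median. Trp53 in group 2 innate lymphoid cells was at 94.8 (77.6 to 115), above the T cell median, which its interval holds. Rrm2b was above the B cell median in AT1 cells (339 cells), at 58.7 (49.2 to 69.5), and in mural cells (327 cells), at 48.7 (41.3 to 57.1), the second interval holding that median. AT1 cells also had 59.98 of Mdm2 (50.4 to 70.9) and 85.2 of Trp53inp1 (73.7 to 98.0). Pmaip1 was at 114.5 in plasmacytoid dendritic cells (226 cells, 101.6 to 128.6) and 100.9 in basophils or mast cells (86.2 to 117.4). Both were above the neutrophil median. Perp was at 79.3 in basophils or mast cells (66.4 to 94.0) and 68.0 in mesothelial cells (59.4 to 77.4), above the ciliated median.

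Other genes of the pathway were examined as fixed lists. Of 272 tests of 16 upstream kinases, modifiers and cofactors, 92 were called higher and 83 lower (33.8% and 30.5%). The 30 further direct targets tested gave 197 higher and 181 lower of 510 (38.6% and 35.5%). The 16 immediate early genes gave 110 and 107 of 272 (40.4% and 39.3%), and 15 proliferation genes 110 and 91 of 255 (43.1% and 35.7%). The corresponding shares over all genes were 34.1% and 29.9%.

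To compare the genotypes, 3 contrasts were tested in each lineage with edgeR over the 10 replicated libraries. Of the 561 member-lineage pairs, 406 passed the filter on low counts, with each of the 33 members tested in at least 1 lineage. In p21mTert against p21Het, 0 of 406 pairs were called (0.0309% of all gene-lineage pairs were). At an unadjusted p under 0.05 there were 18, or 4.43%, beside 5.5% of all pairs, 9 higher and 9 lower, and DESeq2 called 0 (0.111% of all pairs). Against p21mTertCD, p21mTert had 0 called (0.0584% of all pairs), 33 at unadjusted p under 0.05 (8.13%, beside 6.52%) and 2 by DESeq2 (0.493%, beside 0.279% of all pairs). In p21mTertCD against p21Het, 0 were called (0.0997% of all pairs), 20 were under the unadjusted threshold (4.93%, beside 4.97%) and DESeq2 called 2 (0.493%, beside 0.405%). The groups did not overlap in 15, 47 and 78 pairs in that order, or 3.69%, 11.6% and 19.2%, beside 3.9%, 11.6% and 18.2% of all pairs. The median log2 difference over members was 0.01, 0.08 and -0.06. Each group serves in 2 contrasts, so they are not independent. A change in the mix of cells within a gate cannot be told apart from a change per cell.

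**Figure D3:**
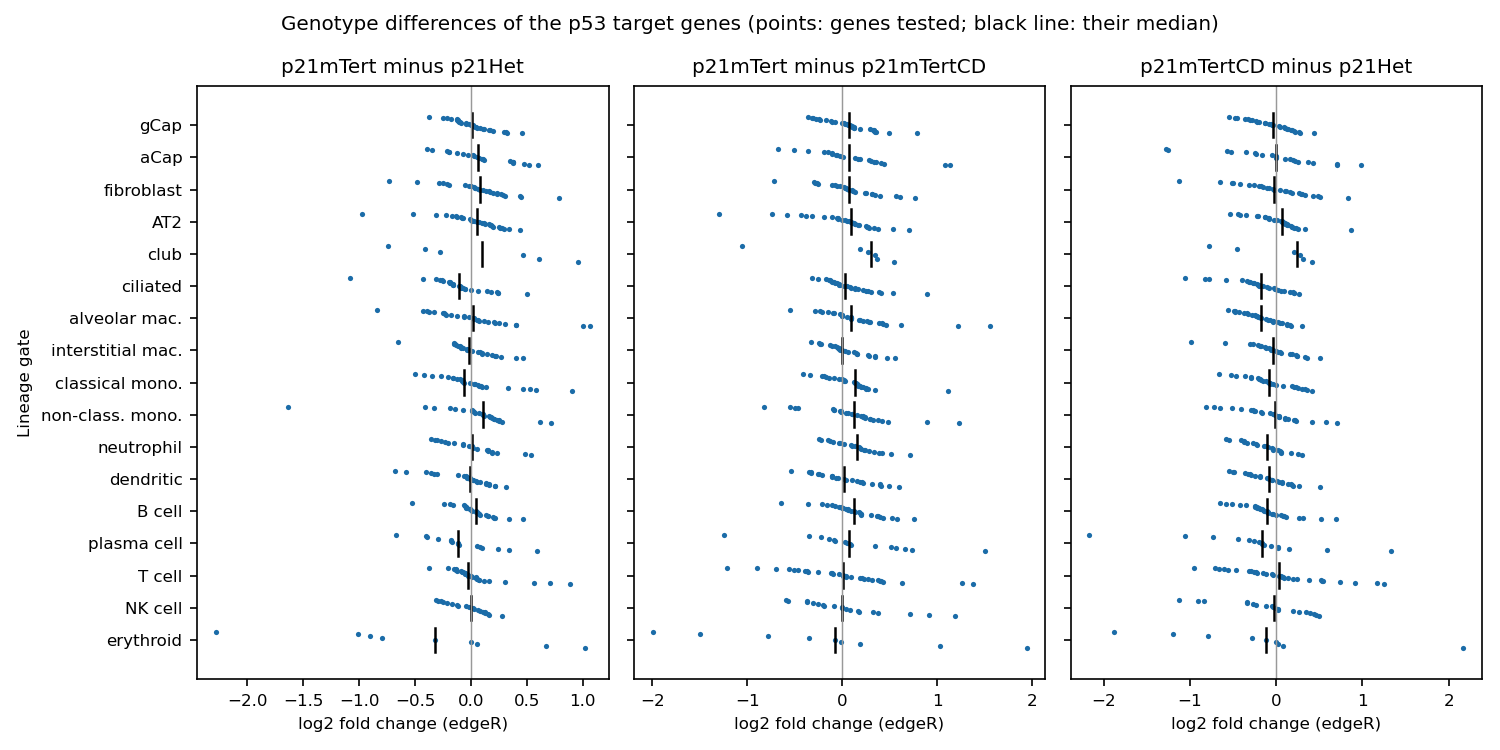
Log2 fold change (edgeR) of each tested p53 target gene (points) in 17 lineage gates, for the 3 genotype contrasts, with black bars at the median over members. Over all lineages the medians of the 3 contrasts are 0.01, 0.08 and -0.06, and no point passed the adjusted threshold of 0.05.

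In p21mTert against p21Het, the 5 pairs of smallest p were the following. Pmaip1 in erythroid cells was at 0, 2.3, 1.62, 1.27 and 1.39 in p21mTert and at 19.8 and 4.39 in 2 p21Het libraries (log2 difference -2.28 ± 0.60, adjusted p 0.484). The p21mTert erythroid sums held 98246 to 2162866 UMIs over all genes, so their Pmaip1 levels stand for few UMIs each. Phlda3 in non-classical monocytes was at 7.18 to 23.3 in p21mTert and at 24.4, 81.4 and 14.9 in p21Het (-1.63 ± 0.50, adjusted p 0.466). With no filter on low counts, edgeR called this pair (adjusted p 4.1e-06). p21Het_2 held the high value, and without it the difference was -0.38. Plk3 in ciliated cells was at 6.24 to 8.95 in p21mTert and 9.17, 13.6 and 26.5 in p21Het (-1.08 ± 0.34, adjusted p 0.401; -0.67 without p21Het_3). Gadd45a was among the 5 in 2 lineages, and neither passed. In alveolar macrophages it was at 16.5, 10.8, 13.9, 12.3 and 14.9 in p21mTert and at 23.2, 33.2 and 16.8 in p21Het (-0.84 ± 0.27, adjusted p 0.765; -0.44 without p21Het_2). In AT2 cells it was at 53.2, 66.1, 67.6, 68.2 and 71.1 in p21mTert and at 51.5, 42.8 and 53.04 in p21Het (0.44 ± 0.15, adjusted p 0.769). Within the later deposit alone, the 5 differences were -2.24, -1.81, -1.43, -0.98 and 0.50. There 0 member pairs were called, and the share of all pairs in that smaller fit is not given here.

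Most of the smallest p in the other contrasts came from T cells. Of 31 members tested there, 10 had an unadjusted p under 0.05 in p21mTert against p21mTertCD (32.3%, beside 12.4% of all genes) and 7 in p21mTertCD against p21Het (22.6%, beside 15.2%), but 1 in p21mTert against p21Het (3.23%, beside 3.89%). Bax was at 164 and 129 in p21mTertCD, at 103, 110 and 102 in p21Het and at 106 to 122 in p21mTert, so both p21mTertCD libraries lay above all 8 others. The log2 difference of p21mTertCD from p21Het was 0.55 ± 0.11 (adjusted p 0.0723), and that of p21mTert from p21mTertCD -0.39 ± 0.10 (adjusted p 0.206). Fas was at 28.9 and 21.9 in p21mTertCD against 39.7, 38.7 and 39.3 in p21Het (-0.56 ± 0.14, adjusted p 0.110). Zmat3 was at 14.6 and 20.8 in p21mTertCD, 12.5, 10.5 and 10.5 in p21Het and 9.29 to 14.2 in p21mTert, a difference of 0.75 ± 0.21 from p21Het (adjusted p 0.149) and of -0.70 ± 0.19 in the other contrast (0.208). Phlda3 was low but separate, at 6.44 and 5.77 against 2.16, 4.70 and 1.46 in p21Het and 2.19 to 3.50 in p21mTert (1.17 ± 0.40, adjusted p 0.209, and -1.22 ± 0.35, 0.218). Gadd45a was at 2.80 and 6.53 in p21mTertCD and 8.53 to 17.6 in p21mTert (1.26 ± 0.36, adjusted p 0.220). Leaving out 1 library moved some of these differences by more than 1.5 times. The Gadd45a difference was 2.02 without p21mTertCD_2 and 0.74 without p21mTertCD_1. That of Phlda3 from p21Het was 1.87 without p21Het_2. Without p21mTertCD_2 the Zmat3 differences were 0.44 and -0.39, and without p21mTertCD_1 the Bax difference of p21mTert from p21mTertCD was -0.24. By DESeq2, Bax (adjusted p 0.00237) and Fas (0.0330) passed in p21mTertCD against p21Het, and Bax and Gadd45a (both 0.0487) in p21mTert against p21mTertCD.

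**Figure D4:**
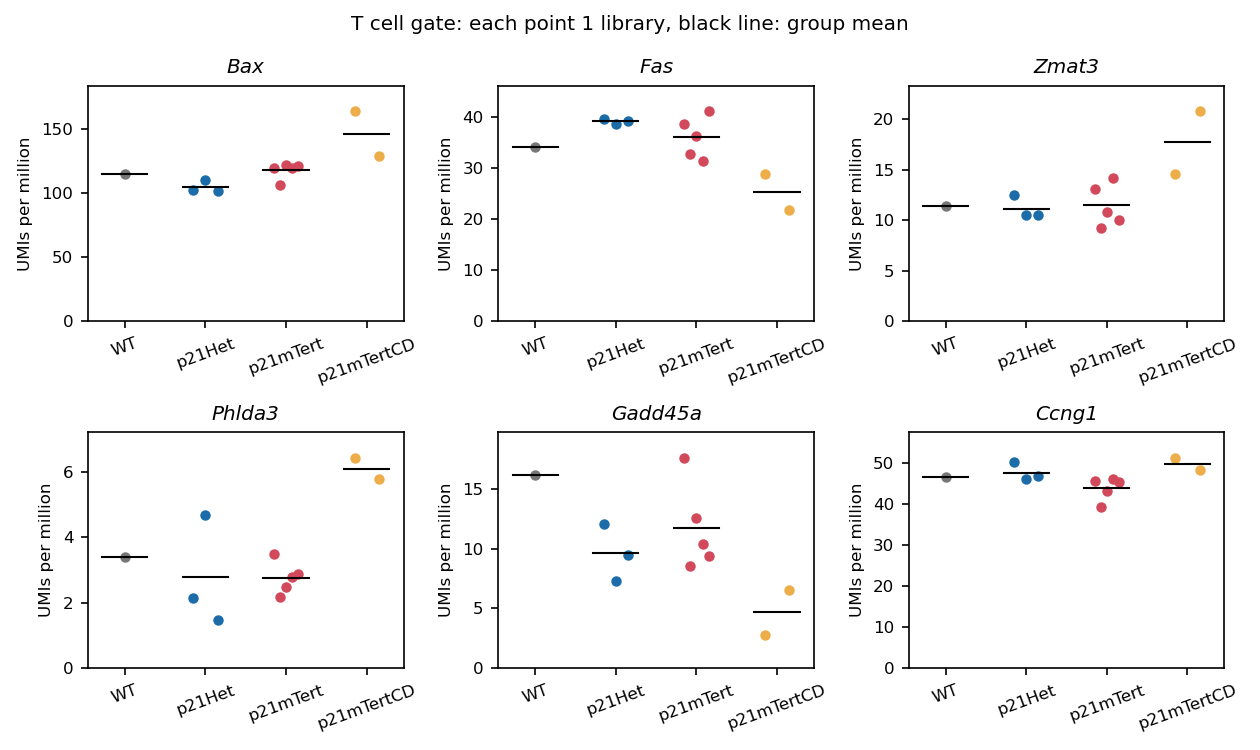
CPM of 6 p53 target genes in the T cell gate, each point 1 library and each black line a group mean, with axes from 0. Bax is at 164 and 129 in p21mTertCD and at 102 to 122 in the 8 libraries of p21Het and p21mTert, and Fas is at 28.9 and 21.9 against 31.3 to 41.2.

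The library p21mTertCD_1 stood apart in its T cells. It gave 2238 T cells and 96 B cells, where the other libraries gave 661 to 1432 T cells and 866 to 2256 B cells. Without p21mTertCD_2, which leaves this library alone in its group and assumes that it varies like the others, edgeR called 8 member pairs in each p21mTertCD contrast, all in T cells. That was 25.8% of the 31 members tested there, beside 9.06% of all T cell genes in p21mTert against p21mTertCD (1151 of 12701) and 10.5% in p21mTertCD against p21Het (1337 of 12701). Without p21mTertCD_1 it called 0 members in both, beside 0.229% and 0.142% of all T cell genes. Tnfrsf10b was at 1.95 in p21mTertCD_1 and 5.67 to 10.6 elsewhere, Pmaip1 at 61.7 against 16.6 to 26.0, Apaf1 at 40.7 against 13.5 to 24.4, and Sesn1 at 14.6 against 29.9 to 54.5. Of the 9 members called in either contrast, these 4, Sesn3 and Trp53inp1 had p21mTertCD_2 within the range of the other genotypes, 6 in all. Trp53inp1 was at 73.4 in p21mTertCD_1, 126.7 in p21mTertCD_2 and 105 to 168 elsewhere. Gadd45a and Bax had both p21mTertCD libraries outside that range on the same side, with Gadd45a at 2.80 and 6.53 against 7.32 to 17.6. Perp had them on opposite sides, at 5.46 and 0.380 against 1.08 to 2.96. These members were called with p21mTertCD_1 alone in its group, so its place outside the range was likely from the start. How often p21mTertCD_2 lay within or outside the range was not counted over all T cell genes called. The counts of members within and outside it therefore mark nothing particular to the members.

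Markers of T cell state and subset, picked after their values were seen, were outside the other libraries' range there in some cases and within it in others. Ccr7, which marks naive and central memory T cells, was at 14.7 in p21mTertCD_1 and at 208 to 484 elsewhere. Gzmk and Pdcd1, known from antigen-experienced T cells, were at 214 and 147 against 18.3 to 103 and 23.5 to 61.7. Cd4, the helper T cell co-receptor, was at 190.6 against 53.3 to 121, and Foxp3, the regulatory T cell factor, at 5.27 against 9.29 to 42.1. Cd8a and Cd8b1, the cytotoxic T cell co-receptor chains, were at 175 and 446, within the other libraries' 104 to 237 and 227 to 570. The 15 proliferation genes summed to 1909 there, the highest of the 11 libraries (median 1042), and the 16 immediate early genes to 3919, the lowest (median 5007). The summed NK markers were also highest, at 1027 (median 415), whereas the B cell markers were lowest, at 12.8. Their part in the p53 target values of p21mTertCD_1 was not tested.

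Outside T cells, Sesn3 in non-classical monocytes had the smallest p of p21mTert against p21mTertCD. It was at 21.5, 20.4, 19.1, 20.7 and 26.6 in p21mTert and at 9.35 and 13.04 in p21mTertCD (0.89 ± 0.21, adjusted p 0.158). Against p21Het, at 20.6, 18.1 and 17.6, p21mTertCD differed by -0.65 ± 0.23 (adjusted p 0.707). Neither p21mTertCD value overlapped the other groups. Within the later deposit the Bax, Fas, Zmat3 and Phlda3 differences in T cells from p21Het were 0.50, -0.58, 0.80 and 1.00. There 0 member pairs were called, again without the share of all pairs in that fit.

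Among the other fixed lists, 4 pairs were called. In p21mTert against p21mTertCD these were 1 of 348 further targets and 1 of 265 immediate early pairs (all pairs 0.0584%). In p21mTertCD against p21Het they were 2 of 348 further targets (all pairs 0.0997%). The called pairs lay in the monocyte gates, where larger shares of all genes were called. Those shares were 0.928% in classical and 0.276% in non-classical monocytes in p21mTertCD against p21Het. In p21mTert against p21mTertCD the share in non-classical monocytes was 0.331%. Tap1, which encodes a peptide transporter of class I antigen presentation and is listed among the further p53 targets, was higher in p21mTertCD than in p21Het in classical monocytes (128 and 134 against 67.1 to 82.5; 0.93 ± 0.14, adjusted p 0.00231) and in non-classical monocytes (117 and 148 against 56.9 to 77.1; 1.07 ± 0.15, adjusted p 0.00869). In non-classical monocytes it was lower in p21mTert, at 71.0 to 80.6, than in p21mTertCD (-0.85 ± 0.13, adjusted p 0.0146). Hspa8, a constitutive chaperone in the dissociation list, was at 636 to 907 in p21mTert and at 1126 and 1161 in p21mTertCD non-classical monocytes (-0.62 ± 0.11, adjusted p 0.0272). In p21mTert against p21Het the lists gave 0 called pairs in edgeR, with 8 of 223 upstream pairs, 30 of 348 further targets, 38 of 265 immediate early pairs and 14 of 158 proliferation pairs at an unadjusted p under 0.05 (3.59%, 8.62%, 14.3% and 8.86%, beside 5.5% of all pairs). In the same order the shares were 5.38%, 10.1%, 14.7% and 14.6% in p21mTert against p21mTertCD (6.52% of all pairs), and 3.14%, 7.18%, 6.04% and 12.03% in p21mTertCD against p21Het (4.97% of all pairs).

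The wild-type library could be described but not tested. It belongs to the earlier deposit, whose 3 libraries had medians of 4133 to 4420 UMIs and 6.30% to 6.58% mitochondrial UMIs in kept cells. The 8 later libraries had medians of 5122 to 6454 UMIs and 2.82% to 4.28%. The part of deposit and depth in the WT values was not tested. Of 397 member-lineage pairs with a WT value, WT lay above all other libraries in 64 (16.1%) and below all in 38 (9.57%), near the 14.8% and 9.41% of all 142260 gene-lineage pairs. By lineage, members above all other libraries were 9 of 30 in alveolar macrophages (30%, beside 25.1% of all genes) and 7 of 22 in aCap (31.8%, beside 14.8%), where 0 lay below (8.16% of all genes). Members below all others were 6 of 25 in interstitial macrophages (24%, beside 15.3%) and 4 of 22 in neutrophils (18.2%, beside 12.4%). In B cells 2 of 29 lay above (6.9%, beside 7.39%) and in T cells 1 of 31 (3.23%, beside 10%). Mdm2 in ciliated cells and Dcxr in club cells were among the values where WT was highest, at 245 and 450.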

How the data were processed

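The authors deposited UMI counts per gene and barcode, made with Cell Ranger on mm10 per the labels' design text and the submitters' processing notes. Counts were used as deposited, after the limits of 1000 to 30000 UMIs and at most 14% mitochondrial UMIs. Cells were gated by marker lists: each marker's level, as log1p(UMIs per 10000) over its 99.5th percentile, was averaged per list, with a best score of at least 0.3 and a lead of at least 0.1. The gCap and aCap lists did not compete in this step. Cells led by the list for all endothelium were split where those scores differed by at least 0.1, with no minimum for either score. Endothelial cells with a smaller difference were not compared. Doublets were kept; Scrublet (scanpy 1.11.5), at 0.8% per 1000 barcodes, served an alternative, and its own thresholds marked 0.991% to 3.89% of cells. UMIs were summed per library and lineage and tested with edgeR 4.0.16 (quasi-likelihood, TMM, filterByExpr) and, as an alternative, DESeq2 1.42.0 (R 4.3.3), with Benjamini-Hochberg adjustment over all genes of a lineage and contrast. The scripts were tested on simulated data. The members and lists were chosen with earlier results of these data known. All members are named, with every library's value for the highest member of each role, and per genotype contrast the 5 pairs of smallest p. The list gene Rfwd2 and the marker Ly6a2 found no match and were not used here.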

Additional observations from a re-analysis of the deposited data

Results flagged for a closer look

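Of 11 groups of 4 to 10 libraries examined among the named genotype pairs, 2 held a library far from the rest. The limit used, Dixon's, is set to mark about 1 group in 20 by chance; these groups come from pairs chosen for their small p, for which no such rate was computed. Gadd45a in AT2 cells was at 53.2 CPM in p21mTert_1, below the other 4 p21mTert libraries at 66.1 to 71.1. Bax in T cells was at 106 in p21mTert_2, below the other 4 at 119.6 to 122.

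For 4 genes the libraries of 2 groups did not overlap in either of 2 lineages and lay in opposite order. None of these pairs passed the adjusted threshold in edgeR (Bax and Fas in T cells passed by DESeq2 in p21mTertCD against p21Het), and the differences between lineages were not tested. Groups without overlap made up 3.9%, 11.6% and 18.2% of all gene-lineage pairs in p21mTert against p21Het, p21mTert against p21mTertCD and p21mTertCD against p21Het. Gadd45a in p21mTert against p21Het had a log2 difference of 0.44 in AT2 cells, -0.84 in alveolar macrophages and -1.01 in erythroid cells. Zmat3 in p21mTert against p21mTertCD was at 0.53 in ciliated cells, opposite to T cells. In p21mTertCD against p21Het, Bax was at -0.039 in classical monocytes and -0.78 in club cells, Fas at 0.22 in aCap and 0.28 in gCap, and Zmat3 at -0.65 in B cells and -0.78 in ciliated cells, each opposite to T cells.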

How the results depend on the processing

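The counts of called pairs between genotypes, 0 in each contrast, depended on a few settings. In p21mTert against p21Het, 1 pair was called without doublets (Btg2 in ciliated cells, 0.68, or 0.246% of member pairs, beside 0.0455% of all pairs). With no filter on low counts 3 were called (0.542%, beside 0.511%). These were Btg2 in ciliated cells (0.51), and Phlda3 (-1.635) and Plk2 (0.71) in non-classical monocytes. In p21mTert against p21mTertCD, DESeq2 called 2, no filter 1 (0.181%, beside 0.516%), and leaving out 1 library at a time gave 0 to 8. In p21mTertCD against p21Het, DESeq2 called 2, no filter 1 (0.181%, beside 0.376%), and leaving out 1 library gave 0 to 8. The 8 in each came without p21mTertCD_2. The cause was not tested. Between lineages, leaving out 1 library gave 188 to 197 pairs called higher and 183 to 191 lower, and the other settings 188 to 244 and 178 to 210. Shares of all gene-lineage pairs under these settings are not given here, so these counts have no background beside them. With the replicate number as a block, 0 member pairs were called in each genotype contrast, and the share of all pairs is not given here. Same-numbered libraries correlated at -0.44 to 0.327 in their deviations and so were not treated as pairs. The 33 members in the lineage of their highest level, and the 15 genotype pairs of smallest p, kept their direction under the alternatives run. Both sets were chosen from these data for extreme values, and the alternatives reuse most of the same libraries. A kept direction was therefore likely from the start. Of all 385 called lineage pairs, 28 turned sign under another scaling. Groups of 2 and 3 libraries, and 20 cells as the smallest sum, limit the precision.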
